A study of Mus musculus with 48 samples.

Results

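Cholesterol synthesis was followed through 7 genes, *Srebf2*, *Insig1*, *Hmgcs1*, *Idi1*, *Sqle*, *Cyp51* and *Dhcr7*, which were selected by name and not by their values and are 7 of the 24973 genes in the deposited table. RNA was measured in microglia (MG), astrocytes (AC), pericytes (PC) and endothelial cells (EC) sorted from the same brains of male C57BL/6 mice aged 12 to 15 weeks. The right middle cerebral artery was occluded for 60 min (transient middle cerebral artery occlusion, tMCAO) and reperfused for 23 h, and cells were collected at 24 h. Ipsilateral libraries came from the ischemic hemisphere and contralateral libraries, the controls, from the other hemisphere of the same mice, so that both groups had undergone surgery and ischemia. Each of the 8 groups (4 cell types by 2 hemispheres) had 6 replicates, each a pool of 3 to 4 mice with a neurological score of at least 8 of 14 points. A replicate number was taken to mark both hemispheres of a pool, which the labels do not state. Cells were gated as VECAD+ and free of NG2, PDGFRb and ACSA2 for EC, NG2+ and PDGFRb+ without VECAD for PC, ACSA2high without CD45 and the vascular markers for AC, and CD45low/CD11b+ for MG.

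Cholesterol is made from acetyl-CoA in a long chain of enzymes. *Hmgcs1* encodes the cytosolic HMG-CoA synthase, an early enzyme of the chain, and *Idi1* the isopentenyl diphosphate isomerase, which makes isoprenoid building blocks. *Sqle*, squalene epoxidase, makes the first oxygenated step of the sterol branch, *Cyp51* removes a methyl group from lanosterol, and *Dhcr7* makes cholesterol from 7-dehydrocholesterol. *Srebf2* encodes SREBP2, the membrane-bound transcription factor that switches these genes on when sterols are scarce, and *Insig1* encodes the protein that holds the SREBP complex in the endoplasmic reticulum when sterols are plentiful and is itself an SREBP target. In the adult brain, cholesterol is largely made locally because lipoproteins barely cross the blood-brain barrier, and astrocytes and oligodendrocytes are known as its main producers.

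In the GRCm38 coordinates of the table, *Srebf2* (ENSMUSG00000022463) lies at chr15:82147266-82205376, *Insig1* (ENSMUSG00000045294) at chr5:28071363-28078662 and *Hmgcs1* (ENSMUSG00000093930) at chr13:119690446-119708260. *Idi1* (ENSMUSG00000058258) lies at chr13:8885501-8892451, *Sqle* (ENSMUSG00000022351) at chr15:59315081-59331192, *Cyp51* (ENSMUSG00000001467) at chr5:4081145-4104746 on the minus strand and *Dhcr7* (ENSMUSG00000058454) at chr7:143823167-143848410. SREBP2 is known to bind sterol regulatory elements beside CCAAT boxes, which bind NF-Y, so promoters were searched on both strands for the 9-letter core TCACNCCAC and for CCAAT; the matches shown do not overlap. Of the 7 genes, 6 had a promoter of 250 bases before to 50 bases after the start in RefSeq GRCm38.p6, and *Sqle* had no entry. The 6 genes had 8 such promoters, 3 of them of *Dhcr7*. The core was found in 1 of the 8, that of *Hmgcs1*, in 0 of 14 promoters of other synthesis enzymes, and in 1.24% of all 32851 promoters. A CCAAT box was found in 6 of the 8 (1 for each gene), in 12 of 14 promoters of other synthesis enzymes, and in 37.4% of all promoters. The stretches that hold these letters are shown for *Hmgcs1* (chr13:119690102-119690322), *Insig1* (chr5:28071171-28071225) and *Srebf2* (chr15:82147109-82147163), all on the plus strand, because they set the enzyme beside its regulators. Capitals mark the core and ATTGG, which is CCAAT read on the other strand. A match describes the letters and shows no binding in these cells.
Hmgcs1: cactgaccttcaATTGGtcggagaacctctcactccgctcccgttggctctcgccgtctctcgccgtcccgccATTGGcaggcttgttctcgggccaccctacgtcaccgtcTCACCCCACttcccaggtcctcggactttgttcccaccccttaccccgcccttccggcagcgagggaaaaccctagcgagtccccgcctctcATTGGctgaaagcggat
Insig1: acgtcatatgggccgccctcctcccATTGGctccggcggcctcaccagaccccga
Srebf2: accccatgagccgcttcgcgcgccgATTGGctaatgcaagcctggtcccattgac

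The sum of normalized counts over all genes was 10549900 in the lowest and 16942165 in the highest library, and the reads behind them are not given in the table. In 1 library, ipsilateral MG replicate 3, low values were spaced by 2.37 normalized counts, the worth of 1 read, so that a floor of 3 reads was 7 normalized counts there, a limit that covers counting error only. All 16 of 16 markers of the labelled cell types were higher in every library of their own cell type than in every other library, with the cell types taken from the column names, since the titles of 12 ipsilateral PC and MG libraries name the opposite cell type. *Srebf2* stood far below the rest of its group in 3 libraries. It was 175 in contralateral EC replicate 2 against 1235 to 1687 in the other contralateral EC libraries, 119 in ipsilateral MG replicate 2 against 578 to 851, and 398 in ipsilateral EC replicate 1 against 1292 to 1830. AC libraries also held RNA of oligodendrocytes. The 10 oligodendrocyte markers, none at 0 throughout, made up 0.461% to 3.32% of contralateral and 0.782% to 4.40% of ipsilateral AC libraries, and at most 0.339% of any other library.

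**Figure D1:**
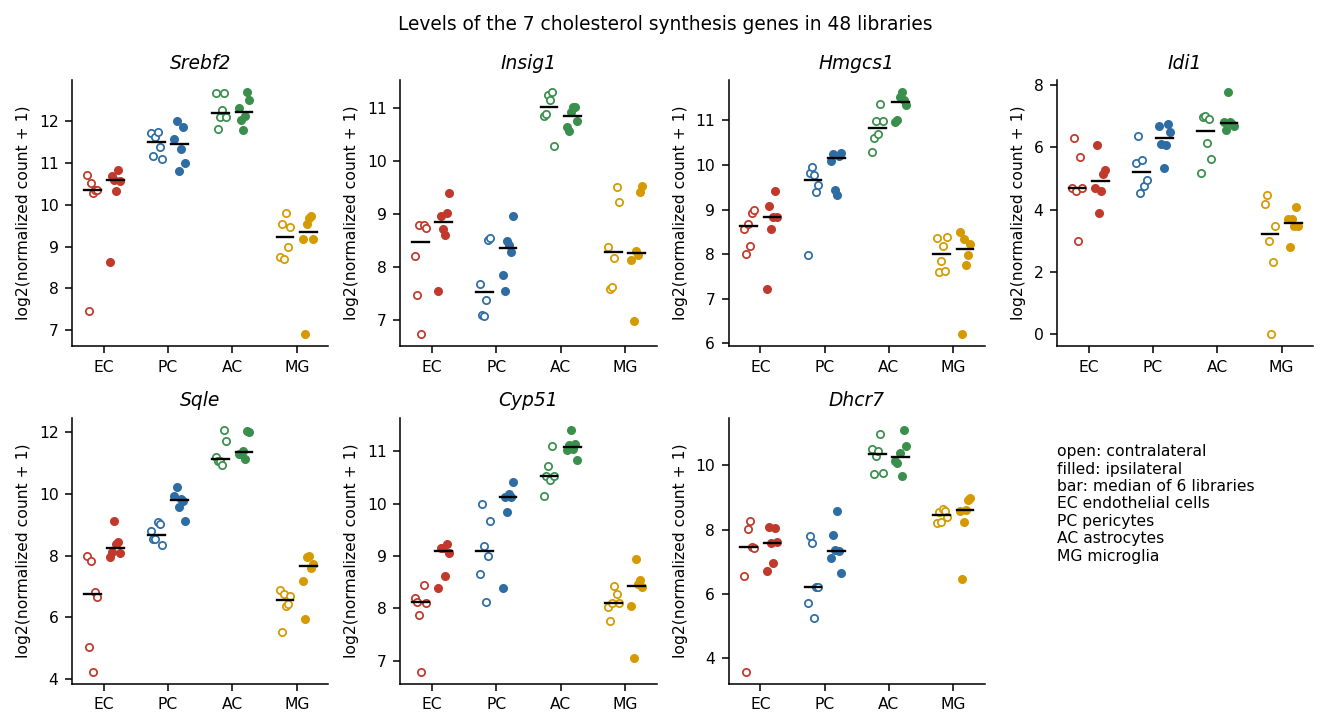
Each panel plots log2(normalized count + 1) of a gene in the 48 libraries, by cell type (EC, PC, AC, MG), with contralateral libraries as open and ipsilateral libraries as filled points and the median of 6 libraries as a bar. AC sit highest for all 7 genes, with contralateral *Sqle* between 1949 and 4293 normalized counts in AC and at most 543 elsewhere.

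In the contralateral hemisphere all 7 genes were at their highest mean in AC, and *Sqle* differed most, with a fitted level 29.9-fold higher in AC than in EC and 29.7-fold higher than in MG. In the fit of all 48 libraries, levels were called different where they differed by 1.5-fold or more in either direction and the adjusted p did not exceed 0.05. AC exceeded EC for 7 of 7 genes, where 31.9% of all 15003 genes tested were called higher in AC, and exceeded MG for 7 of 7, against 31.4% of all genes. AC exceeded PC for 5 of 7, against 29.3% of all genes, with *Idi1* (log2 difference 1.03, SE 0.55, adjusted p = 0.121 in limma) and *Srebf2* (0.82, SE 0.40, adjusted p = 0.0862) not called. For 6 of 7 genes, the exception being *Idi1*, every contralateral AC library lay above every contralateral library of the other cell types, which held for 9.48% of all genes. Ipsilaterally this held for 5 of 7, without *Idi1* and *Srebf2*, against 8.78% of all genes. In RNA of sorted pools, the share of cells that carry an RNA and its amount per cell cannot be told apart.

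*Sqle* was lowest at 1949, at a median of 2231.5 and highest at 4293 normalized counts in contralateral AC, whereas contralateral PC ranged from 322 to 543 with a median of 406. EC ranged from 18 to 252 with a median of 106.5 and MG from 45 to 116 with a median of 93.5. AC and PC overlapped with no other cell type, while the ranges of EC and MG overlapped. PC exceeded EC by 2.29 on the log2 scale (SE 0.39, adjusted p = 6.11e-06), and EC and MG differed by -0.01 (EC minus MG, SE 0.39, adjusted p = 0.999 in limma), so their order was not resolved.

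The sterol enzymes after *Sqle* followed AC first but differed in the second place. *Cyp51* ranged from 1125 to 2182 in contralateral AC (median 1476), from 277 to 1016 in PC (545.5), from 215 to 343 in MG (273) and from 110 to 348 in EC (276.5). AC and PC stood apart from the other cell types by the test, and MG and EC did not differ beyond their spread (log2 difference of EC minus MG -0.19, SE 0.29). *Dhcr7* ranged from 853 to 2027 in AC (median 1314), from 297 to 395 in MG (352.5), from 11 to 305 in EC (173.5) and from 37 to 224 in PC (73.5). Here MG took the second place, 3.90-fold above PC (adjusted p = 0.00083 in limma) and 2.92-fold above EC (adjusted p = 0.00932), and EC and PC were not resolved. Both orders rest on replicate 2, whose contralateral EC library held 11. Without it MG and EC were not resolved (EC minus MG -0.86, adjusted p = 0.0527), and EC exceeded PC by 1.35 (adjusted p = 0.00302).

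The early enzymes had the order AC, PC, EC and MG. *Hmgcs1* ranged from 1246 to 2629 in contralateral AC (median 1838.5), from 250 to 987 in PC (811), from 256 to 509 in EC (394) and from 194 to 331 in MG (258.5). PC exceeded EC by 0.85 on the log2 scale (SE 0.32, adjusted p = 0.0334), a call kept in 6 of 11 alternatives, and EC and MG were not resolved (adjusted p = 0.159). *Idi1* was low throughout, with medians of 94.5 in AC, 37 in PC, 25 in EC and 8.5 in MG, and was listed at 0 in 1 contralateral MG library. EC exceeded MG by 1.93 (SE 0.55, adjusted p = 0.00338), while AC against PC and PC against EC were not resolved. The *Idi1* difference between AC and EC, 1.48 (SE 0.55, adjusted p = 0.0219), was called in 6 of 11 alternatives.

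The regulators did not share an order below AC. *Srebf2* ranged from 3614 to 6593 in contralateral AC (median 4687), from 2198 to 3436 in PC (2897.5), from 175 to 1687 in EC (1310.5) and from 418 to 896 in MG (611). PC exceeded EC by 1.51 (SE 0.40, adjusted p = 0.00215) and EC and MG were not resolved, but without replicate 2, the contralateral EC library at 175, EC exceeded MG by 1.30 (adjusted p = 0.000184). *Insig1* ranged from 1243 to 2512 in AC (median 2081.5), from 193 to 734 in MG (311), from 106 to 444 in EC (360) and from 135 to 374 in PC (185.5). Below AC, no pair of cell types differed past the threshold for *Insig1*. In contralateral MG, *Insig1* was 734 and 602 in replicates 5 and 6, and 193 to 333 in replicates 1 to 4. In contralateral PC it was 364 and 374 against 135 to 204, and AC and EC showed no such split. Over the 7 genes, PC exceeded EC for 4 (*Hmgcs1*, *Sqle*, *Cyp51* and *Srebf2*), against 18.2% of all genes. PC and MG differed for 6, of which *Dhcr7* was higher in MG, against 48% of all genes, and EC and MG differed for 2, *Idi1* and *Dhcr7*, against 41.6% of all genes.

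**Figure D2:**
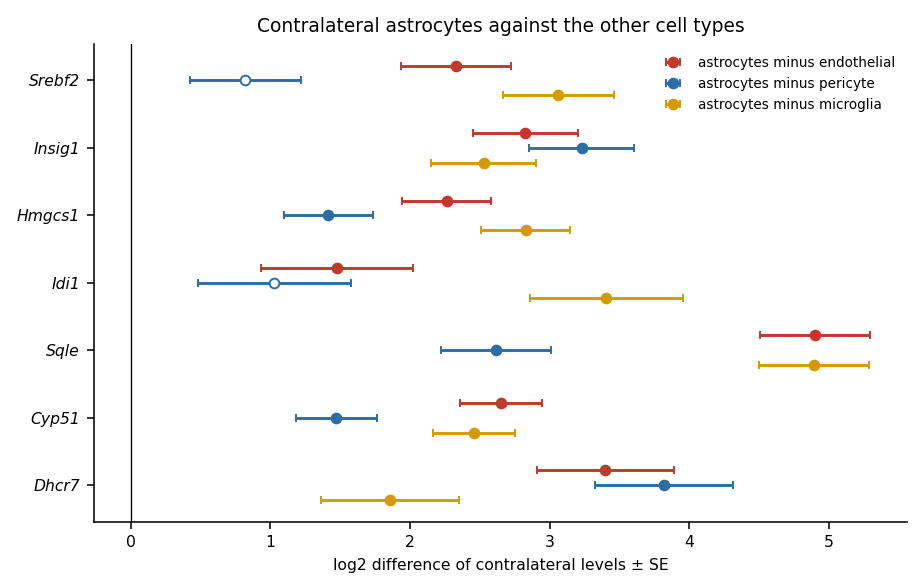
Points are fitted log2 differences of contralateral levels, AC minus EC (red), PC (blue) or MG (yellow), with SE as bars, and open points were not called. All points lie above 0, and *Sqle* reaches 4.90 against EC and 4.89 against MG.

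Per kilobase of exon, *Srebf2* had the highest contralateral mean of the 7 genes in AC (707 normalized counts per kilobase), PC (397) and EC (167), and *Insig1* in MG (127). *Idi1* was the lowest in every cell type, down to 2.81 per kilobase in MG. The ranks between these ends moved with the cell type. *Sqle* reached 486 per kilobase in AC, behind *Srebf2* and *Insig1*, and 22.3 in EC and 16.2 in MG, above *Idi1* alone.

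Among contralateral AC libraries, replicate 6 had the least oligodendrocyte RNA, a marker sum of 52509, which was still above every library of the other cell types (at most 40533). Its *Sqle* was 3367, whereas replicate 4, with the most (431702), had 1949. *Hmgcs1* and *Cyp51* were also higher in replicate 6, and *Insig1* (1243 against 2261), *Dhcr7* (857 against 1383), *Idi1* (48 against 70) and *Srebf2* (4404 against 4970) were lower. The highest contralateral AC *Sqle*, 4293, was in replicate 5, whose marker sum was 202223. Replicates 1 to 4 ranged from 1949 to 2339, so *Sqle* also differed between replicates 1 to 4 and replicates 5 and 6. The 4 markers of oligodendrocyte precursors were also highest in AC, with sums of 3361 to 18244 contralaterally against at most 2169 in PC. The part of both kinds of RNA in the AC levels was not tested.

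**Figure D3:**
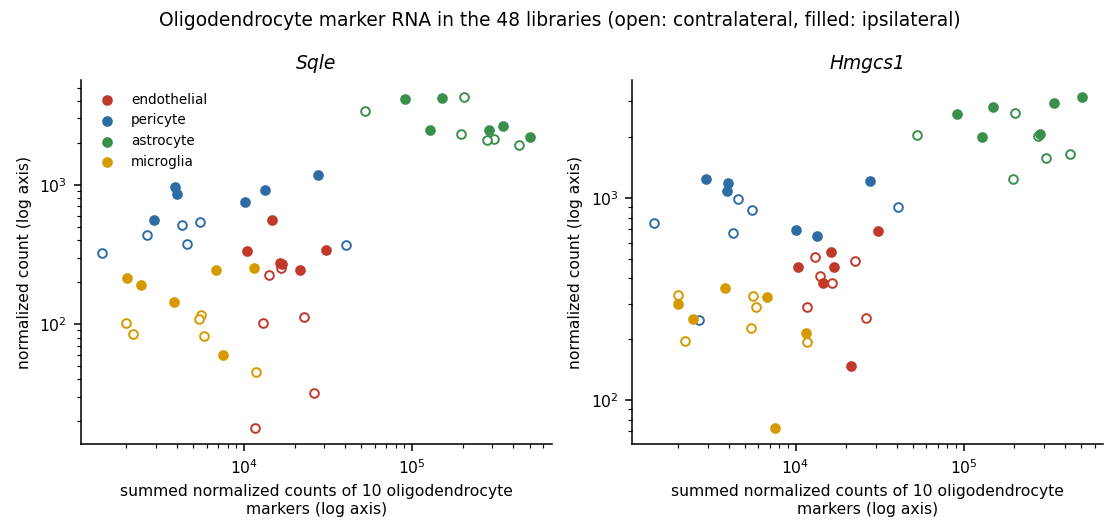
Normalized counts of *Sqle* and *Hmgcs1* (log axes) are plotted against the summed normalized counts of 10 oligodendrocyte markers (log axis) in the 48 libraries, with contralateral open, ipsilateral filled and cell types by colour. AC libraries lie at marker sums of 52509 to 504000, to the right of all others, and at the highest *Sqle* and *Hmgcs1*.

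The main comparison of the study asked what stroke changed in each cell type. A gene was called regulated where it differed by 1.5-fold or more, the adjusted p did not exceed 0.05, and every replicate of the ipsilateral or of the contralateral group was above 10 normalized counts. Of the 7 genes, all of which were tested in every cell type, 1 was regulated in PC, *Sqle*, which rose. The background there was 0.441% of all genes called higher and 0.581% called lower. No member was regulated in EC, AC or MG by limma, and at an unadjusted p under 0.05 the counts were 2 in EC, 2 in AC and 1 in MG, where 11.9%, 9.28% and 28% of all genes were under it, and 1 in PC, where 15.4% were. Among all genes, 0.362% were called higher and 0.128% lower in EC, 0.334% and 0.00655% in AC, and 4.29% and 6.27% in MG. The median fitted log2 fold change of the 7 genes was 0.59 in EC, 0.74 in PC, 0.18 in AC and 0.01 in MG, beside medians over all genes tested of -0.03, -0.04, -0.06 and -0.18. Fold changes are on the log2(normalized count + 1) scale, which understates the change of low genes such as *Idi1*.

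**Figure D4:**
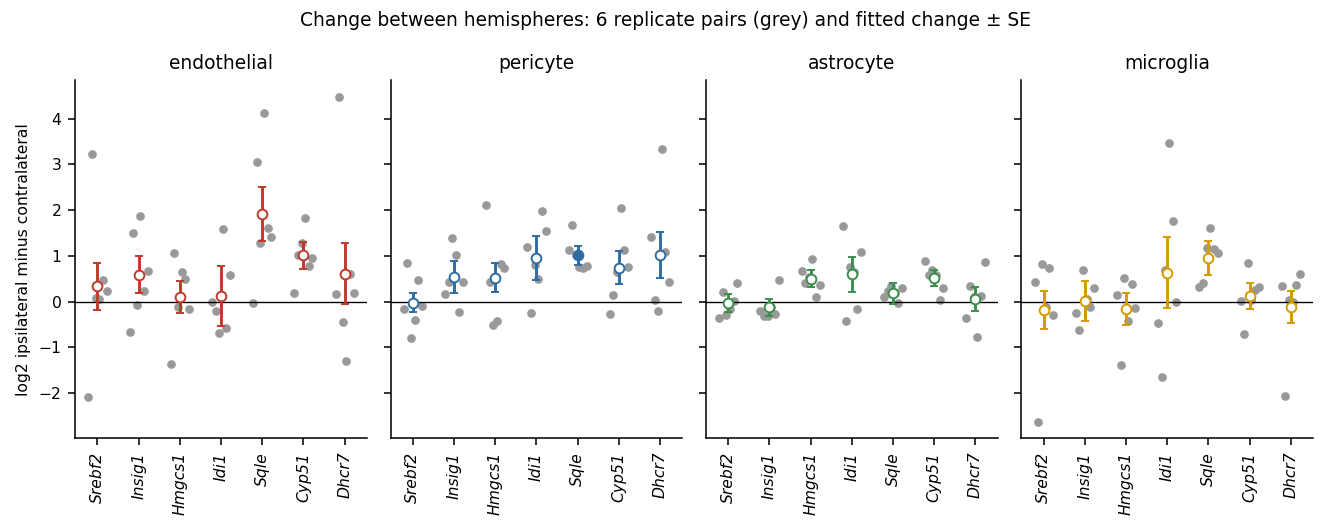
Grey points are log2 ipsilateral minus contralateral differences of the 6 replicate pairs, and coloured points are the fitted changes with SE, filled where regulated. *Sqle* in PC is the filled point (1.01), with 6 of 6 pairs above 0.

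*Sqle* in PC was 322 at the lowest, 406 at the median and 543 at the highest in contralateral libraries, and 555, 889.5 and 1182 in ipsilateral ones. The groups did not overlap and all 6 pairs were higher ipsilaterally. The mean went from 428 ± 88.3 to 873 ± 210 (SD, n = 6), and the fitted log2 fold change was 1.01 (SE 0.21, adjusted p = 0.0363 in limma). With the replicate number as a block it was 1.01 (SE 0.18, adjusted p = 0.0365). The call did not hold when any replicate was left out (replicate 1, 0.098; 2, 0.0908; 3, 0.12; 4, 0.105; 5, 0.0866; 6, 0.0811, as adjusted p), while the log2 fold change lay between 0.88 and 1.14 and the adjusted p between 0.0261 and 0.176 over 17 alternatives. PC libraries also differed between hemispheres in markers of other cell types. The 4 smooth muscle markers, none at 0 throughout, summed to 305671 to 472420 contralaterally and 140102 to 323604 ipsilaterally. Whether this RNA came from other cells or from the PC, and its part in the *Sqle* result, was not tested. The 4 microglial markers summed to at most 11003 contralaterally (median 1258) and 28388 ipsilaterally (median 10670), and the 6 neutrophil markers to at most 1226 and 12948, with *Ly6g* at 0 throughout contralateral PC. In replicates 5 and 6, whose ipsilateral PC libraries held 0.220% and 0.228% of the mean microglial marker sum of ipsilateral MG (4.96% to 23.4% in replicates 1 to 4), *Sqle* was higher ipsilaterally by 0.73 and 0.78 on the log2 scale, and by 0.76 to 1.67 in replicates 1 to 4; the part of microglial and neutrophil RNA was not tested.

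*Sqle* had a positive fitted change in the other cell types as well, without being called. In EC it ranged from 18 to 252 contralaterally (median 106.5) and from 245 to 557 ipsilaterally (median 303.5), and 5 of 6 pairs were higher. The fitted change was 1.91 (SE 0.59, adjusted p = 0.179 in limma), and it was called in the joint fit of 48 libraries (adjusted p = 0.00469). The lowest values, 18 and 32, were those of contralateral EC replicates 4 and 2, the contralateral EC libraries with the fewest genes above 0 (13420 and 13868). Without replicate 2 the change was 1.68 and without replicate 4 it was 1.47. In MG, *Sqle* ranged from 45 to 116 contralaterally (median 93.5) and from 60 to 252 ipsilaterally (median 202), higher in 6 of 6 pairs. The fitted change of 0.95 (SE 0.38) had an adjusted p of 0.119 in limma and of 0.0112 without replicate 2, whose ipsilateral library is that with *Srebf2* at 119. In AC, where its level was highest, *Sqle* had its smallest fitted change, 0.18 (SE 0.24, adjusted p = 0.868).

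*Cyp51* had the levels most like those of *Sqle* among the 7 genes (Pearson's r = 0.906 over the 48 libraries, as a description). Its EC values were 110, 276.5 and 348 (lowest, median, highest) contralaterally and 334, 548.5 and 600 ipsilaterally, with 6 of 6 pairs higher and an overlap of the groups between 334 and 348. The fitted change was 1.01 (SE 0.30, adjusted p = 0.163 in limma). In AC 6 of 6 pairs were higher too, from a median of 1476 to 2159.5, with a change of 0.51 (SE 0.17, adjusted p = 0.344). Over 17 alternatives its lowest adjusted p in AC was 0.0876 in limma. In PC 5 of 6 pairs were higher, with a change of 0.74 (SE 0.37, adjusted p = 0.351), and in MG the change was 0.13 (SE 0.28). *Cyp51* shares 166 exon bases, 3.76% of its exon length, with *Akap9* on the opposite strand, and the libraries do not keep strand. Reads on several genes, here *Cyp51* and *Akap9*, were left out of the counts.

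*Dhcr7*, at the end of the pathway, had a fitted change of 1.02 in PC (SE 0.50, adjusted p = 0.347 in limma), with 5 of 6 pairs higher and contralateral values of 37 to 224 against 99 to 382. Its EC change of 0.61 (SE 0.67) was -0.16 without replicate 2, where the contralateral library held 11 against 93 to 305 in the others. In AC and MG its fitted changes were 0.05 and -0.12, both smaller than their SE.

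Of the early enzymes, *Hmgcs1* was higher in 6 of 6 AC pairs, going from 1246, 1838.5 and 2629 (lowest, median, highest) to 1994, 2719 and 3164, with a change of 0.50 (SE 0.19, adjusted p = 0.446 in limma). Over 17 alternatives its lowest adjusted p in AC was 0.0879 in limma. The groups overlapped. In PC its change was 0.53 (SE 0.32) with 4 of 6 pairs higher, and in EC and MG it was 0.10 and -0.16 with 3 of 6 pairs higher in each. *Idi1* had a fitted change of 0.96 in PC (SE 0.48, adjusted p = 0.36 in limma), from a median of 37 to 78.5. Its AC change of 0.59 (SE 0.38) included 217 in ipsilateral replicate 3, against 94 to 112 in the other ipsilateral AC libraries. Opposite-strand genes overlap 557 exon bases of *Hmgcs1* (12.1%) and 323 of *Idi1* (9.22%), neither of them in the table.

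*Srebf2*, the transcription factor, had fitted changes of 0.33 in EC (SE 0.52), -0.02 in PC (SE 0.21), -0.03 in AC (SE 0.20) and -0.18 in MG (SE 0.41), none of them as large as its SE, and after rescaling within the cell type it was 0.03 in PC and 0.03 in AC. PC values were 2198, 2897.5 and 3436 contralaterally and 1802, 2819.5 and 4097 ipsilaterally, so *Srebf2* RNA showed no shift beyond its spread where *Sqle* rose. Activity of SREBP2 depends on its cleavage, which RNA levels do not measure. *Insig1* had fitted changes of 0.59 in EC (SE 0.41, 4 of 6 pairs higher), 0.54 in PC (SE 0.34, 5 of 6), -0.13 in AC (SE 0.18, 1 of 6) and 0.01 in MG (SE 0.44, 3 of 6).

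Whether stroke acted differently across cell types was tested as the difference of the fitted changes for each of the 6 pairs of cell types. Of the 42 differences (7 genes by 6 pairs), 0 were called by limma and 2 had an unadjusted p under 0.05. These were *Sqle* in EC minus AC (1.73, SE 0.56, adjusted p = 0.398) and *Cyp51* in EC minus MG (0.89, SE 0.41, adjusted p = 0.421). The share of all genes with such an unadjusted p was not computed for these differences, so both are given as a description only. Over all genes the shares called were 0.0267% for EC against PC, 0.06% for EC against AC, 0.273% for EC against MG, 0.00667% for PC against AC, 0.727% for PC against MG and 0.293% for AC against MG. The *Sqle* change in PC is thus not shown to differ from that in the other cell types.

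The 17 other enzymes of the pathway gave 0 regulated genes in each cell type by limma, with 1 at an unadjusted p under 0.05 in EC, 6 in PC, 3 in AC and 3 in MG, beside the shares of all genes given above (11.9%, 15.4%, 9.28% and 28%). Their median fitted change was 0.37 in EC, 0.48 in PC, 0.10 in AC and -0.08 in MG (15 tested in MG). In contralateral levels, 11 of the 17 enzymes were called higher in AC than in EC, 10 higher than in PC and 13 higher than in MG. The shares of all genes called higher in AC were 31.9%, 29.3% and 31.4%. Of the 17 enzymes, 1, 2 and 2 were called lower in AC than in EC, PC and MG. Of all 15003 genes tested, 2583, 2406 and 2892 were.

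Genes of sterol sensing and uptake (13 of 14 tested) gave 1 regulated gene in MG and 0 in EC, PC and AC by limma, with 2, 1 and 4 at an unadjusted p under 0.05 in these last. In EC, PC and AC 11.9%, 15.4% and 9.28% of all genes had such a p. In MG 4.29% of all genes were called higher and 6.27% lower. The regulated gene was *Lpl*, lipoprotein lipase, which rose in MG from 1078, 1248 and 1757 (lowest, median, highest) to 9374, 22982 and 27761, a log2 fold change of 3.88 (SE 0.26, adjusted p = 1.4e-06). Its fitted changes in EC and PC were 2.43 and 0.54, and in AC it was 4.60 in the joint fit, where it was called (adjusted p = 0.00293 in limma). With replicates 1 to 4 it was called in EC (4.04, adjusted p = 0.0205) and AC (6.77, adjusted p = 0.0362). The part of microglial RNA in these changes was not tested. *Mylip*, a ubiquitin ligase named after its values were seen, was not called in MG (-0.68, SE 0.21, adjusted p = 0.0539), but was called lower with the replicate block (-0.68, SE 0.15, adjusted p = 0.0203) and under 4 other alternatives, among them without replicate 2 (-0.74, adjusted p = 0.0320).

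Among the 13 genes of LXR, oxysterols, esterification and efflux, 5 were regulated in MG, 3 higher and 2 lower, and 0 in EC, PC and AC by limma (2, 5 and 2 at an unadjusted p under 0.05). In EC, PC and AC 11.9%, 15.4% and 9.28% of all genes had such a p. In MG 4.29% of all genes were called higher and 6.27% lower. *Ch25h*, which makes 25-hydroxycholesterol, rose by 4.22 (adjusted p = 4.33e-06), from 36 to 93 contralaterally to 577 to 1922 ipsilaterally. *Soat1*, which esterifies cholesterol, rose by 0.90 (adjusted p = 0.00711), and *Nceh1*, a neutral cholesterol ester hydrolase, by 1.25 (adjusted p = 0.0102). *Cyp27a1*, the sterol 27-hydroxylase, fell by 2.14 on the log2 scale (adjusted p = 0.00424), and *Apoe*, the main apolipoprotein of the brain, fell by 0.69 (adjusted p = 0.0349). MG libraries also differed in marker RNA. The 6 neutrophil markers summed to 90 to 1042 contralaterally, with *Ly6g* at 0 throughout, and to 1447 to 18058 ipsilaterally, the 4 perivascular macrophage markers to 220 to 1194 and 485 to 3525, and the 4 microglial markers to 180699 to 227678 and 91419 to 163197. Their part in these changes and in that of *Lpl* was not tested. The call of *Apoe* was lost without replicate 1, 3, 4, 5 or 6 and that of *Nceh1* without replicate 3 or 4. In PC the fitted changes of *Ch25h*, *Soat1* and *Cyp27a1* were 3.41, 1.31 and 1.40, none of them called in the main fit. The joint fit called *Ch25h* in PC (adjusted p = 0.0231 in limma). The part of microglial RNA in these PC changes was not tested. The 11 genes of fatty acid synthesis linked to SREBP gave 0 regulated genes in each cell type, with at most 1 at an unadjusted p under 0.05. Of all genes, 11.9% in EC, 15.4% in PC, 9.28% in AC and 28% in MG had such a p. In contralateral levels 10 of 11 were called higher in AC than in EC, 9 than in PC and 10 than in MG. The shares of all genes called higher in AC were 31.9%, 29.3% and 31.4%.

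**Figure D5:**
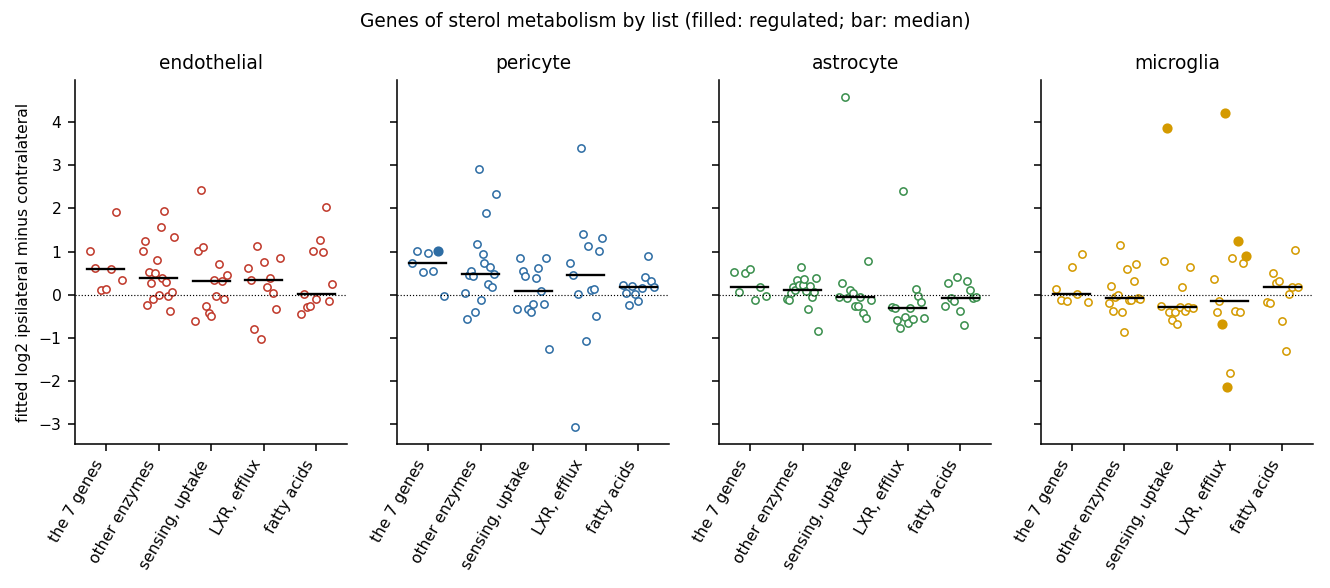
Fitted log2 ipsilateral minus contralateral changes of the 7 genes and of 4 lists of related genes are plotted by cell type, filled where regulated, with the median of each list as a bar. Filled points are *Sqle* in PC and 6 genes of sterol handling in MG, from *Ch25h* (4.22) to *Cyp27a1* (-2.14).

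Over the 48 libraries, Pearson's r between pairs of the 7 genes ranged from 0.215 (*Idi1* and *Dhcr7*) to 0.906 (*Sqle* and *Cyp51*) with a median of 0.723, a description that mainly reflects the 4 cell types the libraries share. After the mean of each group was subtracted, the median over the 21 pairs was 0.343. Among 11846 genes with a mean of at least 50, levels much like the mean of the 7 genes were those of *Elovl5* (r = 0.922), *Abca2* (0.916), *Abhd4* (0.911) and *Rundc3a* (0.904). For deviations from the group means, genes much like it were *Ppme1* (0.845), *Usp10* (0.837), *Miga2* (0.832) and *Natd1* (0.832). In EC, the 3 libraries with the fewest genes above 0, contralateral replicates 4 (13420) and 2 (13868) and ipsilateral replicate 1 (14051), had mean log2 deviations from their groups of -0.745, -0.956 and -0.889 over the 7 genes, and the other 9 had deviations of -0.149 to 0.543. Ipsilateral MG replicate 2, with 13422, had -1.49. The part of this in the EC and MG changes was not tested.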

How the data were processed

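RNA of sorted cells from 48 libraries was sequenced as unstranded SMART-Seq libraries made from about 250 pg of RNA. Per the study's methods and the submitters' processing notes, reads of 75 bases were trimmed with Trimmomatic 0.38, aligned with STAR 2.6.1d to GRCm38, and counted on genes with featureCounts 1.6.3, leaving out reads on several genes or several places. The values the authors deposited are counts normalized with DESeq2 1.18.1 and rounded to whole numbers, treated here as a score and not as raw counts. Count tests were therefore not run, and the reads behind the values were not used. No columns of other samples were present.

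Here, log2(normalized count + 1) was fitted with limma 3.58.1 (R 4.3.3, trend) for each cell type over 12 libraries; genes averaging under 10 normalized counts were left out, and tests were two-sided with Benjamini-Hochberg adjustment over all genes tested. Levels and differences of changes between cell types were fitted over 48 libraries. limma was checked on simulated data. Python 3.11.15, numpy 2.4.6, pandas 2.3.3 and matplotlib 3.10.9 made summaries and plots. All 7 genes were named, with regulated genes of the 4 lists and, of the 5 most similar genes by each measure, 4. Results on some genes that this rule names are not reported here. The genes, the lists and the tests were chosen with earlier results of these data known.

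Cell types followed the column names. Both hemispheres of a pool came from the same mice, which pairs them, and equal replicate numbers were taken as the same pool. The main fits held no replicate term and so left this pairing out. Only the alternatives with the replicate block used it. The main fit of 48 libraries likewise left out that the 4 cell types of a replicate shared mice. Deviations of same-numbered libraries correlated across genes by 0.245 in EC, 0.241 in PC, 0.438 in AC and 0.139 in MG on average, against -0.04, -0.05, -0.09 and -0.03 for different numbers. Alternatives were pseudocounts of 0.1 and 10, no filter, a minimum mean of 50, the replicate block, a joint fit, rescaling within the cell type, no expression rule, no minimum fold change, replicates 1 to 4, each replicate left out, and, added after the data were seen, the block with replicates 1 to 4. Exon overlaps were taken from GENCODE M21. The replicates are separate pools of mice.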

Additional observations from a re-analysis of the deposited data

Results flagged for a closer look

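Of 56 groups of 6 libraries (7 genes in 8 groups), 4 held a library whose gap to the nearest of the others exceeded the critical share of the range (0.625), where chance gives about 1 in 20 groups. *Sqle* in ipsilateral EC replicate 3 was 557, against 245 to 342 in the others. *Idi1* in ipsilateral AC replicate 3 was 217, against 94 to 112. *Srebf2* in contralateral EC replicate 2 was 175, against 1235 to 1687, and in ipsilateral MG replicate 2 it was 119, against 578 to 851.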

How the results depend on the processing

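*Sqle* in PC, the 1 regulated gene of the 7, fell to 0 regulated genes with no filter on low values, in the joint fit of 48 libraries, with replicates 1 to 4 alone with or without the replicate block, and whichever replicate was left out (lowest 0, highest 0). The block over 6 pairs kept it, with a change of 1.01. In EC the joint fit called 1 of the 7 (*Sqle*), and in MG leaving out a replicate gave 0 to 1 (*Sqle* without replicate 2). Of the genes of the 4 lists, EC went from 0 to 1 in the joint fit (*Acat2*) and with replicates 1 to 4 (*Lpl*). PC went from 0 to 1 with a pseudocount of 10 (*Ch25h*), to 2 in the joint fit (*Ch25h* and *Hsd17b7*), and to 0 to 1 without a replicate (*Msmo1* without replicate 2). AC went from 0 to 1 with the replicate block (*Fads2*), and to 1 in the joint fit and with replicates 1 to 4, with or without the block (*Lpl* each time). MG went from 6 to 2 in the joint fit (*Lpl* and *Ch25h*), to 7 with a pseudocount of 10, a mean of at least 50 or the block (*Mylip* added), to 5 with no filter, to 4 in the block with replicates 1 to 4 (*Apoe* and *Cyp27a1* lost), and to 4 to 7 without a replicate. The causes were not tested. Contralateral AC levels stayed called for 6 of 7 genes against EC and 5 of 7 against PC in each of 11 alternatives.

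Of 28 changes (7 genes in 4 cell types), 16 kept their sign in every alternative, and none of the others was called. *Srebf2* turned to 0.03 in PC and to 0.03 in AC after rescaling. With replicates 1 to 4, with or without the block, *Dhcr7* in AC was -0.18 and *Insig1* in MG -0.03. Leaving out a replicate in EC gave -0.10 to 0.39 for *Hmgcs1*, -0.18 to 0.28 for *Idi1*, -0.16 to 1.0 for *Dhcr7* and -0.24 to 0.82 for *Srebf2*. It gave -0.20 to 0.13 for *Srebf2* in PC, and in AC -0.12 to 0.21 for *Dhcr7* and -0.12 to 0.04 for *Srebf2*. In MG it gave -0.29 to 0.09 for *Hmgcs1*, -0.13 to 0.13 for *Insig1*, -0.27 to 0.27 for *Dhcr7*, -0.02 to 0.29 for *Cyp51* and -0.38 to 0.31 for *Srebf2*. *Idi1* had medians of 8.5 and 11 normalized counts in MG, where reads limit precision.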
